A study of Mus musculus with 4 samples.

Results

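The 10 genes described here, Ctsk, Acp5, Dcstamp, Ocstamp, Nfatc1, Tnfrsf11a, Itgb3, Oscar, Calcr and Siglec15, were chosen by name for their parts in osteoclast differentiation, cell fusion and resorption, from 35869 genes listed for each library. RNA-seq was performed on CD45+ cells isolated with CD45 microbeads from the eWAT, the fat pad beside the epididymis, of male WT C57BL/6 mice. ND was the control diet and HFD the high-fat diet, and each was fed for 12 weeks from 8 weeks of age. There were 2 libraries per diet. The number of mice behind a library was not given in the sources used here, so p-values measure the spread between these libraries, which may be technical. Values are TPM, the reads of a gene divided by its length and scaled to the same total in each library, so levels of different genes can be compared and every value is a share of the RNA of its library. Ptprc, the gene of CD45, was at 54.5 and 59.4 TPM on ND, against 55.3 and 53.7 on HFD, so the marker of the isolation was present in all 4 libraries. On a gene of 1 kb, 1 read stood for between 0.0607 and 0.0711 TPM, and read numbers below are approximate.

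Osteoclasts are multinucleated cells that arise from precursors of the macrophage lineage and dissolve bone. The cytokine RANKL (Tnfsf11) binds its receptor RANK (Tnfrsf11a) on a precursor that is kept alive by CSF1, and, together with signals from receptors that pair with ITAM adaptors, this raises the transcription factor NFATc1. NFATc1 in turn raises genes of cell fusion, attachment, acid secretion and matrix digestion. Macrophages of obese AT gather around dying adipocytes, load lipid into lysosomes and can also fuse into giant cells, and they share several of these genes.

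Some of the 10 transcripts were higher in HFD, and bulk RNA does not show whether they came from the same cells. The resorption enzymes Ctsk and Acp5 and the receptor Siglec15 were far higher in HFD, the fusion gene Ocstamp and the receptor Tnfrsf11a were moderately higher, Dcstamp and Itgb3 did not pass the test, Nfatc1 was lower in both HFD libraries, and Oscar and Calcr were at or near 0 on both diets. A gene was called changed when limma on log2(TPM + 1), fitted on all 16849 genes with at least 1 TPM in at least 2 libraries, gave a Benjamini-Hochberg adjusted p under 0.05 together with a 1.5-fold or larger change. Of the 10 members, 8 entered this fit, 5 were called higher and 0 lower, while 8.08% of all genes tested were called higher and 10.3% lower. Siglec15 passed the filter only through its HFD values, without it 4 members were called higher, and with no filter it was still called (adjusted p = 0.0156). At an unadjusted p under 0.05, 7 of the 8 were past the threshold in limma, as were 42.3% of all genes tested. The log2 fold changes of the members ran from -0.57 to 5.80, and the median over all genes tested was 0.06. Both HFD values lay above both ND values in 6 members, which held for 34.1% of all genes tested, and below them in Nfatc1, which held for 32.8%. An exact two-sided permutation test of 2 libraries against 2 cannot give a p below 0.333, which was the value for each member whose diets did not overlap.

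These calls depended on which libraries were in the fit. With either ND library left out, the spread rested on the HFD pair alone, 0 of the 16849 genes were called in limma, and 6 of the 8 members kept an unadjusted p under 0.05, beside 22.9% of all genes without ND replicate 1 and 23.9% without ND replicate 2. With HFD replicate 1 or HFD replicate 2 left out, Ctsk, Acp5 and Siglec15 stayed called and Ocstamp and Tnfrsf11a did not, at adjusted p = 0.0685 and 0.0804 without HFD replicate 1 and 0.0551 and 0.0523 without HFD replicate 2. In these fits the lone library is assumed to vary like the pair of the other diet.

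**Figure D1:**
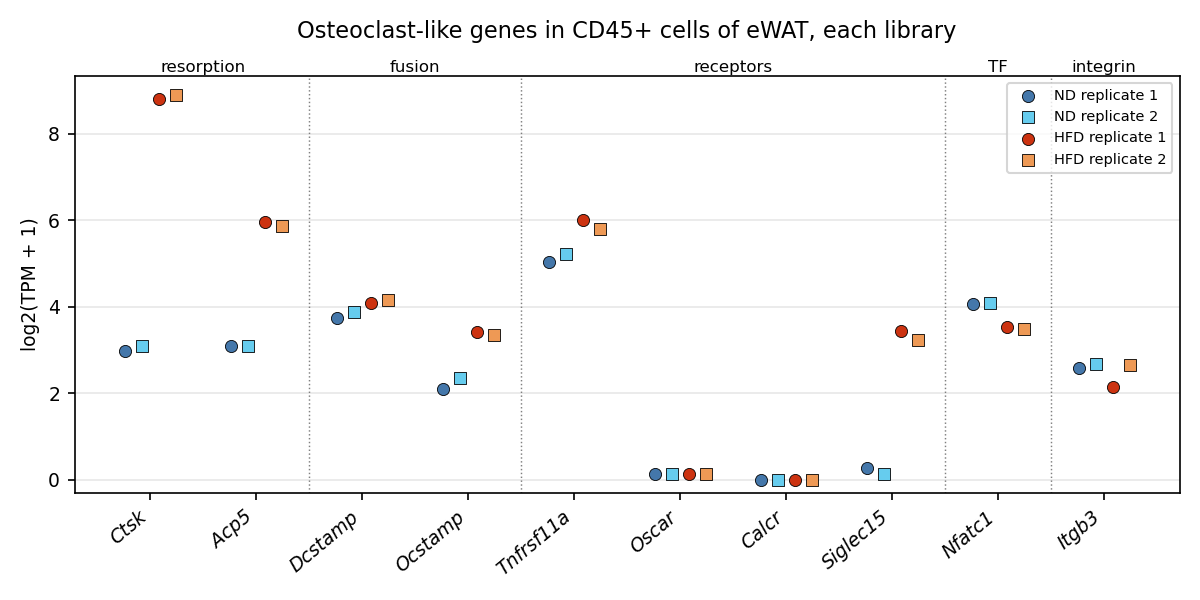
Level of each of the 10 genes in each library, as log2(TPM + 1), grouped by role, with 1 point per library and no averaging. Ctsk, Acp5, Ocstamp, Tnfrsf11a and Siglec15 have both HFD points above both ND points, Dcstamp has the same order with a small gap, Nfatc1 has the reverse order, and Oscar and Calcr lie at the bottom on both diets.

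Ctsk, the gene of cathepsin K, the lysosomal protease that cleaves collagen in the resorption pit, lies at chr3:95499256-95509362 on the plus strand of mm10 in 8 exon blocks (GENCODE vM21). It had 6.9 and 7.6 TPM in ND replicates 1 and 2, and 442.5 and 474.3 TPM in the HFD pair, or about 149 and 189 reads against about 10800 and 10100. The HFD libraries were thus close to each other and far above both ND libraries. The mean rose from 7.25 ± 0.495 TPM to 458 ± 22.5 TPM (SD, n = 2 each), a ratio of 63.2. Its log2 fold change of 5.80 and a standard error of 0.07 (limma adjusted p = 0.00378) ranked 2 among all genes tested. In level, Ctsk moved from above 46.0% of the tested genes in ND to above 97.8% of them in HFD. In ND it gave 8.3% and 8.4% of the summed TPM of the 10 members, and in HFD 71.7% and 74.6%.

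Among the cathepsins, Ctsk was still a minor transcript. It made up 0.179% and 0.198% of the summed TPM of Ctsb, Ctsd, Ctsk, Ctsl and Ctss in ND, and 4.12% and 4.06% in HFD. Ctsd, an aspartic protease of lysosomes, was the most abundant of the 5 in HFD, at 5664.6 and 6344.6 TPM.

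Acp5, the gene of the tartrate-resistant acid phosphatase TRAP that is stained to find osteoclasts, lies at chr9:22126727-22135711 on the minus strand in 9 exon blocks. It had 7.6 TPM in each ND library and 61.6 and 57.2 TPM in HFD, or about 220 and 254 reads against about 2020 and 1630. Both HFD values lay far above the ND values. The mean in HFD was 59.4 ± 3.11 TPM (SD, n = 2), a ratio of 7.82, with a log2 fold change of 2.81 and a standard error of 0.07 (limma adjusted p = 0.00381). The ND levels of Ctsk and Acp5 were alike, with Ctsk at 0.91 and 1.0 times the TPM of Acp5, whereas in HFD Ctsk was at 7.18 and 8.29 times Acp5. A gene model on the opposite strand overlaps Acp5, and the use of strand in counting was not given in the sources used here.

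The promoters of the enzymes that rose most and of Oscar, which was near 0 throughout, are shown to compare the letters that osteoclast factors bind. Promoter windows from RefSeq (GRCm38.p6) were read for Ctsk, Acp5, Tnfrsf11a, Oscar and Calcr, 5 of the 10 members. The 250 bases before each start site were searched on both strands for the NFAT core GGAAA, the AP-1 site TGANTCA, the M-box TCATGTG and the E-box CACGTG of MITF and TFE factors, and the PU.1 core GAGGAA. Matches are in capitals, read on the strand of the gene, and bases in annotated exons were left out. The Ctsk window is chr3:95498960-95499209, the Acp5 window is chr9:22130609-22130848 before the innermost of 3 start sites, and the Oscar window is chr7:3616158-3616407.
Ctsk: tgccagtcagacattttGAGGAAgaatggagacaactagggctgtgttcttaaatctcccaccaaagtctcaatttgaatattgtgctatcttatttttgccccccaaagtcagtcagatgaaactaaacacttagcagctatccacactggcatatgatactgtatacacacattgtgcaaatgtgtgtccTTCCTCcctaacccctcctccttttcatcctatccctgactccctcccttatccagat
Acp5: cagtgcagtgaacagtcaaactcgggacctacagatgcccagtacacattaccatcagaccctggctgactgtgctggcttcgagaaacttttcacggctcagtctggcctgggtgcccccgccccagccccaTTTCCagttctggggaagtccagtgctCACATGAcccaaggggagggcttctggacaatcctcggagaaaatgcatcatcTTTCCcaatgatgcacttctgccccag
Oscar: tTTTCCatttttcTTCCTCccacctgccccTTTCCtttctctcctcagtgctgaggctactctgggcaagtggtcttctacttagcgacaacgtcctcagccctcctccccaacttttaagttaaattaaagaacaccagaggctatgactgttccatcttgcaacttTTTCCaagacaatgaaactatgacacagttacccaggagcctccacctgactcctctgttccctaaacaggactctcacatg
Ctsk held 2 PU.1 cores and none of the other letters. This Acp5 window held 2 NFAT cores, which end 113 and 33 bases before the start, and 1 M-box between them. Oscar held 3 NFAT cores and 1 PU.1 core. Over 32536 windows, 55.7% held the NFAT core, 23.4% the PU.1 core, 6.73% the AP-1 site, 6.04% the E-box and 3.27% the M-box. The other 2 Acp5 windows each held 1 NFAT core, the Tnfrsf11a window held no match, and the 2 Calcr windows held 1 NFAT core in all. A match describes the letters and is not a measured binding site.

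The fusion genes differed from each other. Dcstamp and Ocstamp encode the membrane proteins DC-STAMP and OC-STAMP, which precursors need in order to fuse. Dcstamp (chr15:39745930-39760938, plus strand) was at 12.4 and 13.6 TPM on ND, against 16.0 and 16.7 on HFD. The HFD values were higher but close to the ND values, and the log2 fold change was 0.31 (95% interval 0.07 to 0.55, limma adjusted p = 0.0726), so it did not pass the test and the interval stays below 1.5-fold. Ocstamp (chr2:165393760-165400405, minus strand) was at 3.3 and 4.1 TPM on ND, against 9.7 and 9.2 on HFD, or about 172 and 247 reads against about 574 and 473. The HFD values were well above the ND values, with a log2 fold change of 1.16 and a standard error of 0.13 (limma adjusted p = 0.0153). Ocstamp was at 0.27 and 0.30 times the TPM of Dcstamp in ND and at 0.61 and 0.55 times in HFD. Transcripts of both fusion genes were thus already present in the libraries of isolated CD45+ cells on ND, and which cells made them was not tested.

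Tnfrsf11a, the gene of RANK, lies at chr1:105780718-105847981 on the plus strand. It was at 31.8 and 36.0 TPM on ND, against 63.7 and 54.3 on HFD. These were the highest values of any member in ND, and the diets did not overlap. The mean rose from 33.9 ± 2.97 to 59.0 ± 6.65 TPM (SD, n = 2 each), a ratio of 1.74, and the log2 fold change was 0.78 (standard error 0.12, limma adjusted p = 0.0273).

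Siglec15 encodes a sialic acid receptor of osteoclasts that pairs with the adaptor DAP12. The gene lies on chromosome 18. It had 0.2 and 0.1 TPM in ND, about 3.29 and 1.9 reads, and 9.8 and 8.4 TPM in HFD, about 183 and 137 reads. Siglec15 was thus near 0 in ND and at a moderate level in both HFD libraries. From about 5 reads in ND and about 320 in HFD, the ratio was 65.0, with an exact 95% interval of 27.6 to 202 that covers counting error only. On the log2(TPM + 1) scale, which understates the change of a gene this low, the difference was 3.13 (standard error 0.13, limma adjusted p = 0.005). The size depends on the pseudocount, at 5.23 with 0.1 and 1.45 with 5, and the call was kept under both.

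The remaining receptors were at or near the lowest level the files can show. Oscar encodes an immune receptor that pairs with the Fc receptor gamma chain and adds the ITAM signal to that of RANK. It was listed at 0.1 TPM in each of the 4 libraries, about 2.6 to 3.04 reads each. Calcr encodes the calcitonin receptor of mature osteoclasts. It was listed at 0.0 in each of the 4 libraries, and values are printed in steps of 0.1 TPM. Neither gene was tested, and at this depth no difference between diets was detectable in either. Of the RAMP proteins, the partners of the calcitonin receptor family, Ramp1 was called lower in HFD (log2 fold change -0.66, limma adjusted p = 0.0234), while Ramp3 was at 29.8 and 30.4 TPM on ND, against 9.4 and 16.5 on HFD and was not called (adjusted p = 0.0657). Neither call was stable. Ramp1 lost its call at pseudocount 5 (-0.47), with median-ratio scaling (adjusted p = 0.0527), with quantile normalization (0.0523) and without HFD replicate 1 (0.0594), and Ramp3 was called lower without HFD replicate 1 (0.033), without HFD replicate 2 (0.0276) and at a mean TPM of at least 5 (0.0476).

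Nfatc1, the master transcription factor of osteoclasts, lies on chromosome 18, where a gene model on the opposite strand overlaps it, as for Acp5. It was at 15.8 and 16.0 TPM on ND, against 10.6 and 10.2 on HFD, or about 1680 and 1970 reads against about 1280 and 1070. Both HFD libraries were below both ND libraries, opposite to the resorption enzymes. The log2 fold change was -0.57 (standard error 0.07, limma adjusted p = 0.0173), so Nfatc1 passed the p threshold, as did 14.1% of all genes tested in the lower direction, and missed the 1.5-fold limit by a small margin. It was called lower at pseudocount 0.1 (-0.61), with median-ratio scaling (-0.59), with quantile normalization (-0.64), without the 50 most abundant genes (-0.63) and without HFD replicate 1 (-0.59), each of which makes the count of members called lower 1. In TPM the ND mean was 1.53 times the HFD mean. Nfatc1 is also used by lymphocytes, and in bulk RNA fewer cells of a type and less RNA per cell cannot be told apart. All 7 T cell markers listed were called lower in HFD, with a sum of 170.5 and 187.5 TPM on ND, against 27.5 and 43.0 on HFD, and all 6 B cell markers were called lower, from 134.9 and 132.4 to 24.9 and 29.6 TPM, of which Pax5 passed the filter only through ND, where it is high. Of all genes tested, 10.3% were called lower. No marker of either list was at 0 in every library. Their part in the fall of Nfatc1 was not tested.

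Itgb3, the gene of the beta 3 integrin chain that with the alpha v chain (Itgav) fastens osteoclasts to bone, lies at chr11:104608000-104670476 on the plus strand. It was at 5.0 and 5.4 TPM on ND, against 3.4 and 5.3 on HFD. The diets overlapped, since HFD replicate 2 lay between the ND libraries. The log2 fold change was -0.24 (95% interval -0.89 to 0.42, limma adjusted p = 0.489), and it was 0.024 without HFD replicate 1, so the direction was not settled. Itgav was at 11.6 and 13.2 TPM on ND, against 45.2 and 48.2 on HFD, a log2 fold change of 1.83 (limma adjusted p = 0.00561). Itgav was at 2.32 and 2.44 times the TPM of Itgb3 in ND and at 13.3 and 9.09 times in HFD. Itgb3 is also a gene of platelets, of whose 8 markers 6 were tested. Pf4 and Itga2b were called lower and Treml1 higher, beside 10.3% and 8.08% of all genes tested. Treml1 passed the filter only through HFD, where it is high, and Gp6 was at 0 in every library. The sum of the 8 was 1864.6 and 1815.0 TPM on ND, against 780.3 and 770.2 on HFD, nearly all of it Pf4, which macrophages also express. The part of platelets in the level of Itgb3 was not tested.

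**Figure D2:**
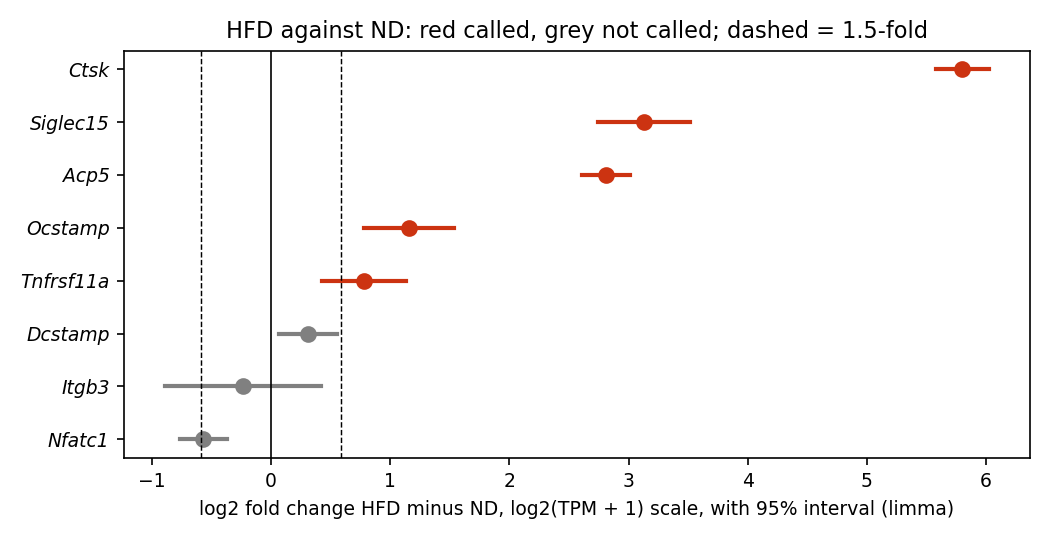
Difference of HFD from ND for the 8 members tested, as log2 fold change on the log2(TPM + 1) scale with 95% intervals from limma (2 libraries per diet), ordered by size. Ctsk stands apart at 5.80, Siglec15 and Acp5 lie near 3, and the intervals of Dcstamp and Nfatc1 exclude 0 while that of Itgb3 spans it.

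The order of levels changed with the diet. In ND, Tnfrsf11a was highest at 33.9 ± 2.97 TPM, then Nfatc1 at 15.9 ± 0.141 and Dcstamp at 13.0 ± 0.849, then Acp5 and Ctsk, whose values met at 7.6 TPM, then Itgb3 at 5.20 ± 0.283 and Ocstamp at 3.70 ± 0.566 (SD, n = 2 each). In HFD, Ctsk was highest, followed by Acp5 and Tnfrsf11a, whose ranges overlapped, Dcstamp, Nfatc1 at 10.4 ± 0.283 TPM, Ocstamp and Siglec15, whose ranges also overlapped, and Itgb3 at 4.35 ± 1.34 TPM. The sum of the 10 genes was 83.1 and 90.5 TPM on ND, against 617.4 and 635.7 on HFD.

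Of the 5 genes of cytokines and their receptors, Tnfsf11 was called lower and none higher. Of all genes tested, 10.3% were called lower and 8.08% higher. Tnfsf11 (RANKL) was at 19.0 and 22.5 TPM on ND, against 2.0 and 2.1 on HFD, so both HFD libraries were far below both ND libraries. It fell by 2.83 on the log2 scale (standard error 0.12, limma adjusted p = 0.005), and the ND mean was 10.1 times the HFD mean. RANKL in immune cells is made mainly by T cells, whose markers fell as given above, and their part in this difference was not tested. Tnfrsf11b, the secreted decoy receptor osteoprotegerin that binds RANKL, was at 3.2 and 3.7 TPM on ND, against 6.1 and 10.2 on HFD, with an adjusted p of 0.0797 in limma, was called higher without HFD replicate 1 (1.33, adjusted p = 0.0448), and is also a gene of stromal cells. The ratio of decoy to RANKL transcripts was 0.17 and 0.16 in ND and 3.05 and 4.86 in HFD. Csf1 had 11.8 TPM in each ND library and 15.1 and 25.4 TPM in HFD (adjusted p = 0.168), and passed the p threshold without HFD replicate 1 (1.04, adjusted p = 0.0321) and without HFD replicate 2 (0.33, adjusted p = 0.0475). Csf1r, the CSF1 receptor, was at 313.9 and 312.4 TPM on ND, against 217.4 and 206.8 on HFD, a log2 fold change of -0.56 that passed the p threshold (adjusted p = 0.00929) and not the fold limit, which it passed with quantile normalization (-0.71), without the 50 most abundant genes (-0.62) and without HFD replicate 1 (-0.60).

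**Figure D3:**
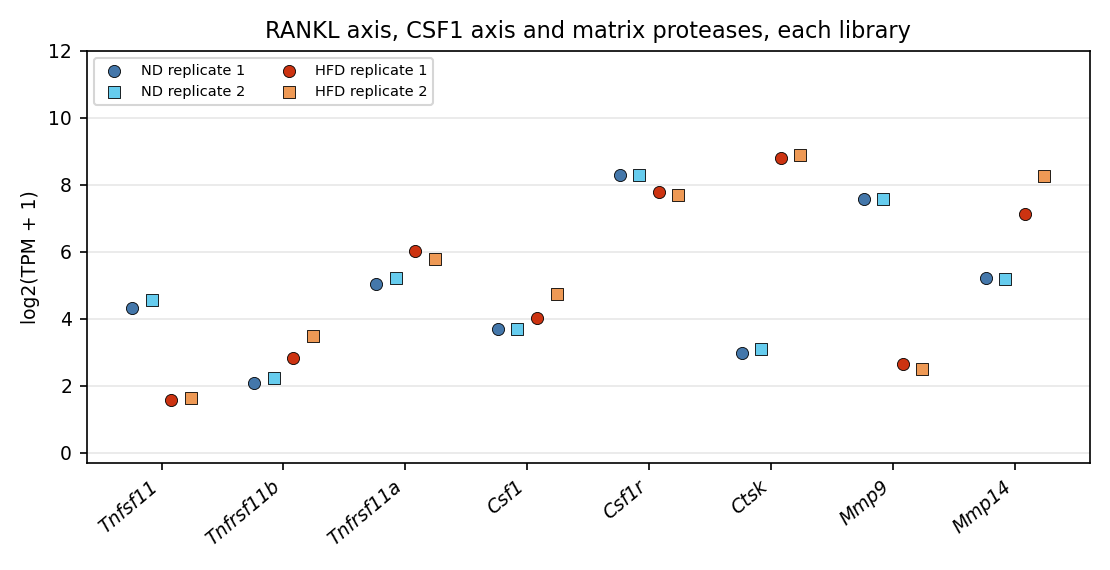
Level of the RANKL, CSF1 and protease genes in each library, as log2(TPM + 1), with 1 point per library. Tnfsf11 and Mmp9 are low in both HFD libraries where Tnfrsf11a and Ctsk are high, and Csf1, Tnfrsf11b and Mmp14 differ between the HFD libraries.

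A list of 76 further osteoclast genes, sorted by role, was read in the same fit. Of these, 75 were listed and tested, 26 were called higher and 8 lower in HFD, beside 8.08% and 10.3% of all genes tested. The list shares lysosomal and macrophage genes with lipid-associated macrophages, and it was chosen with results of these libraries known. The median log2 fold change was 0.24 over the 75 genes.

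All 10 genes of acid secretion had both HFD values above both ND values, and 8 were called higher, beside 34.1% and 8.08% of all genes tested. Tcirg1, the osteoclast subunit of the vacuolar proton pump, was at 71.9 and 72.1 TPM on ND, against 192.8 and 203.1 on HFD (log2 fold change 1.45, limma adjusted p = 0.00447). The largest change was in the pump subunit Atp6v1c1, at 1.77. Clcn7, the chloride and proton exchanger of the ruffled border, and its partner Ostm1 rose by 1.22 and 0.79, where Ostm1 lost its call without HFD replicate 1 (adjusted p = 0.0801) or HFD replicate 2 (0.0744), and Snx10, a sorting nexin needed for resorption, rose by 0.66, which fell below the fold limit at pseudocount 5 (0.52). Car2, the carbonic anhydrase that supplies the protons, was not called (adjusted p = 0.269), with 7.3 and 8.0 TPM in ND, 21.0 in HFD replicate 1 and 9.2 in HFD replicate 2, and it was called without HFD replicate 2 (1.35, adjusted p = 0.0307). The HFD libraries thus disagreed on Car2 while they were close for the pump.

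The proteases split. Mmp9, the gelatinase of osteoclasts, was at 191.2 and 190.6 TPM on ND, against 5.3 and 4.6 on HFD, a log2 fold change of -5.01 and a standard error of 0.08 (limma adjusted p = 0.00378), ranking 16848 of 16849 from the highest. Mmp9 was at 27.7 and 25.1 times the TPM of Ctsk in ND, whereas in HFD Ctsk was at 83.5 and 103 times Mmp9. These proteases of the osteoclast therefore went in opposite directions. Mmp9 is also made by neutrophils and dendritic cells. All 5 neutrophil markers tested of 7 listed were called lower, beside 10.3% of all genes tested. Of these markers, Cxcr2 passed the filter only through ND, where it is high. Ly6g and Mpo, at no more than 0.5 TPM in any library, were not tested. The 7 summed to 71.7 and 95.2 TPM in the ND libraries and to 28.7 and 31.0 in the HFD libraries. Of 7 dendritic cell markers 2 were called lower, beside 10.3% of all genes tested. The sum of the 7 went from 443.4 and 472.1 TPM on ND to 100.6 and 123.1 on HFD. Most of the fall was Cd209a alone, at 367.2 and 393.0 against 65.0 and 58.0 TPM. No marker of these lists that was tested was called higher, and the part of these cells in the fall of Mmp9 was not tested. Mmp14, a membrane-bound collagenase, was called higher (2.49, adjusted p = 0.0344), with 139.6 TPM in HFD replicate 1 and 303.4 in HFD replicate 2, and lost its call when genes were not filtered (adjusted p = 0.0756). Ctsl rose from 136.9 and 144.5 to 953.5 and 1069.6 TPM (2.84), and Ctsb, Ctsd and Ctss were called higher as well.

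Among the fusion partners, 5 of 9 were called higher and 1 lower, beside 8.08% and 10.3% of all genes tested. Atp6v0d2, a proton pump subunit that osteoclasts need for fusion, was at 11.7 and 13.6 TPM on ND, against 331.2 and 298.2 on HFD, a log2 fold change of 4.53 (limma adjusted p = 0.00378) that ranked 5 among all genes. The metalloprotease Adam8 rose by 1.91. The tetraspanin Cd9 rose by 2.37 and the tetraspanin Cd81 fell by 1.15, so the transcripts of these related genes went in opposite directions. Of the 8 genes of attachment and the sealing zone, Itgav and the kinase Src were called higher and Pstpip2 was called lower. Src was at 1.0 and 1.1 TPM on ND, against 2.5 and 2.6 on HFD, a low level on both diets, and lost its call at pseudocount 5 (0.32).

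Of 9 ITAM genes tested, Trem2, a lipid receptor that signals through DAP12, was called higher, with 71.8 and 79.0 TPM on ND, against 652.9 and 672.9 on HFD (3.12, limma adjusted p = 0.00378). Sirpb1a and Sirpb1b were also called higher, and since they are near-identical copies their values are uncertain. Plcg2 was called lower, at -0.64. The adaptors themselves were abundant on both diets, Tyrobp (DAP12) at 2026.7 and 2022.1 TPM on ND, against 2335.8 and 2450.8 on HFD, and Fcer1g at 1776.8 and 1771.1 against 1410.2 and 1503.2 TPM. Of 8 genes of RANK signalling, only the scaffold Gab2 was called, at 0.80, and it lost its call without HFD replicate 1 (adjusted p = 0.0685). A count of 1 of 8 is near the 8.08% of all genes called higher. Traf6, the adaptor of RANK, was at 15.1 and 16.7 TPM on ND, against 16.1 and 14.6 on HFD, and the diets overlapped.

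Of 12 activating transcription factors, Prdm1 (Blimp1), which silences repressors of the osteoclast fate, was called higher at 1.36 and Mitf at 0.70, while Jun at -1.55 and Fos at -0.68 were called lower, so the counts of 2 in each direction are not far from the 8.08% and 10.3% of all genes tested. Mitf was at 3.2 and 3.4 TPM on ND, against 6.4 and 5.6 on HFD. It lost its call at pseudocount 5 (0.41) and when genes were not filtered (adjusted p = 0.0531). Fos lost its call under quantile normalization, where its change was -0.48, and with median-ratio scaling (adjusted p = 0.0545). Jdp2 was at 33.9 and 35.5 TPM in ND and at 21.3 and 47.3 TPM in HFD, so the HFD libraries lay on both sides of ND. Leaving out HFD replicate 1 turned its change to 0.44, while leaving out HFD replicate 2 gave -0.68. Ppargc1b, a coactivator for osteoclast mitochondria, was not called. Of the 4 repressors, none was called. Irf8, which holds precursors back from the osteoclast fate, was at 94.5 and 97.3 TPM on ND, against 77.5 and 70.0 on HFD (-0.38, limma adjusted p = 0.0394), and passed the p threshold without the fold limit. Bcl6 did not pass (adjusted p = 0.206).

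**Figure D4:**
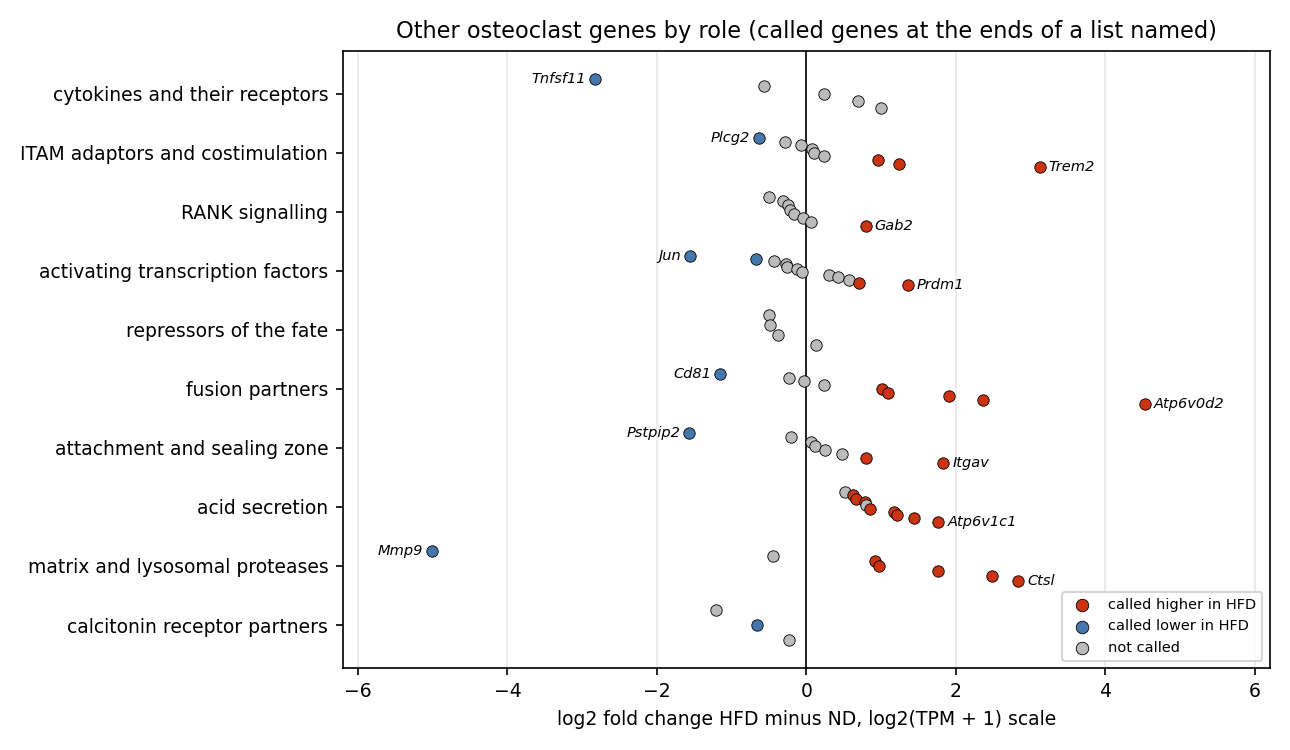
Log2 fold change of HFD minus ND, on the log2(TPM + 1) scale, for the 75 further osteoclast genes tested, by role, with called genes in color and named where they stand at the end of a list. The acid secretion genes all lie to the right of 0, Mmp9 lies farthest left at -5.01 and Atp6v0d2 farthest right at 4.53.

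Markers of other cells were read beside these results, against 8.08% of all genes called higher and 10.3% called lower. Of 10 lipid-associated macrophage markers, 9 were called higher, and their sum was 2800.4 and 2865.6 TPM on ND, against 11903.5 and 12552.1 on HFD. Of 10 general macrophage markers, 2 were called higher and 2 lower, and their sum was 22006.2 and 21400.3 TPM on ND, against 17963.7 and 19272.5 on HFD. Cathepsin K is also made by fibroblasts. Of 9 fibroblast markers, 7 were called higher, and their sum was 686.2 and 734.4 TPM on ND, against 3444.8 in the library of HFD replicate 1 and 6842.4 in that of replicate 2. Bone-forming cells were near absent, since the 8 osteoblast and osteocyte markers summed to between 2.8 and 3.8 TPM in every library and Sp7, their defining transcription factor, was at 0. Spermatid transcripts, from outside the fat, summed to 1906.6 and 1933.3 TPM on ND, against 7224.3 in the library of HFD replicate 1 and 2184.5 in that of replicate 2.

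The HFD libraries differed from each other in fibroblast and spermatid markers but little in the members. On the log2(TPM + 1) scale, HFD replicate 2 minus HFD replicate 1 was between 0.88 and 1.12 for the 9 fibroblast markers and between -2.03 and -1.59 for the 7 spermatid markers. The same difference was 0.10 for Ctsk, -0.11 for Acp5, -0.069 for Ocstamp, -0.23 for Tnfrsf11a and -0.20 for Siglec15, and the median of the lipid-associated macrophage markers was 0.11. Itgb3 was the member with the widest gap, at 0.52. Among the other genes, gaps as wide as those of the fibroblast markers were seen in Mmp14 (1.11), Jdp2 (1.12), the T cell gene Cd3g (1.11) and the dendritic cell gene Ccr7 (1.09). Gaps of that width in the opposite direction were seen in Car2 (-1.11) and the adipocyte gene Adipoq (-0.88). The part of lipid-associated macrophages, fibroblasts and spermatid transcripts in the differences between diets was not tested. Leaving out HFD replicate 1 gave Ctsk a log2 fold change of 5.85, and leaving out HFD replicate 2 gave 5.75.

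**Figure D5:**
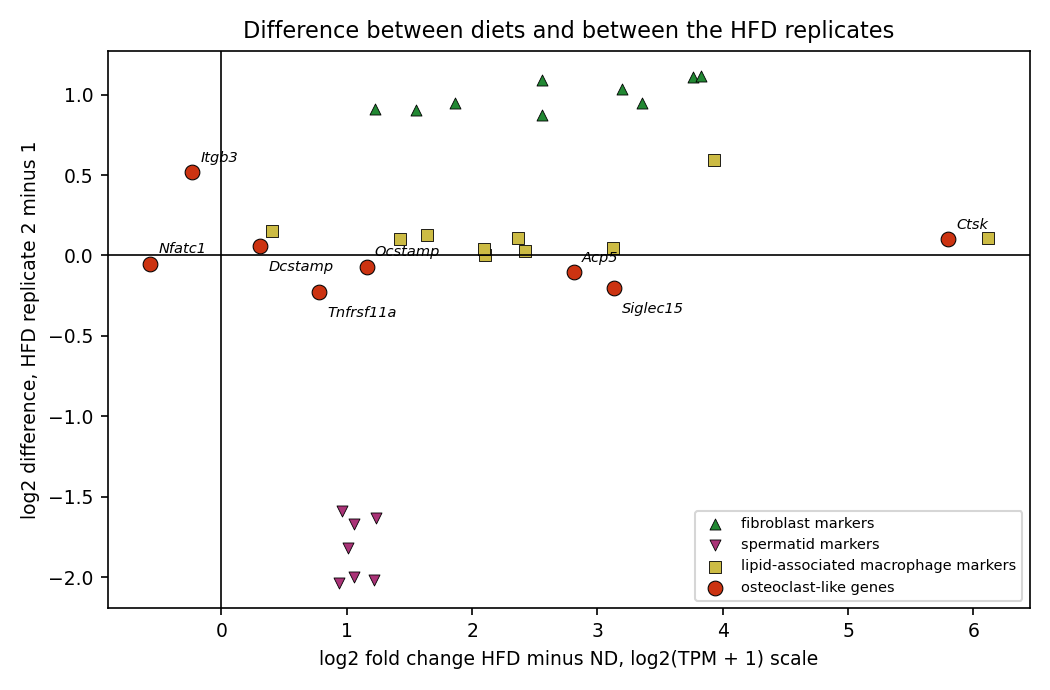
Difference between the HFD libraries (replicate 2 minus 1, vertical axis) against the difference between diets (HFD minus ND, horizontal axis), both in log2(TPM + 1), for the 8 members tested and 3 marker lists. Fibroblast markers lie near 1 and spermatid markers near -2 on the vertical axis, while Ctsk, Acp5, Ocstamp and Nfatc1 lie close to 0.

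The genes with the most similar profile to each called member were found by the distance of log2(TPM + 1), centred on each gene's own mean, over the 4 libraries. Nearest to Ctsk was Gpnmb, at a distance of 0.32, a membrane glycoprotein of osteoclasts and lipid-laden macrophages with 41.5 and 44.0 TPM on ND, against 2917.9 and 3150.2 on HFD, then Igf2bp2 at 0.96 and Atp6v0d2 at 1.28. Nearest to Acp5 was Myo1e, a myosin, at 0.032, then Sbk2 at 0.056 and A230028O05Rik at 0.063. For Siglec15 the nearest were Hspb7, Gdf3 and Oit3, at distances from 0.19 to 0.21. For Ocstamp they were Dynlt3, Cav2 and Fam64a, and for Tnfrsf11a they were Mir6904, Mbtps2 and Senp2. With 4 libraries many genes have like profiles, and the distance is a description.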

How the data were processed

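The authors trimmed the reads with Trim Galore 0.4.2 and cutadapt 1.9.1, aligned them to mm10 with STAR 2.6.1e, stripped duplicates with Sambamba, summed the rest by gene in featureCounts 1.6.2 and deposited TPM per gene, printed to 1 decimal. The gene annotation and the use of strand are not given in the sources used here. The TPM of the 4 libraries were joined by symbol and compared as log2(TPM + 1) in R 4.3.3 by limma 3.58.1 (moderated variance with a trend on the mean level, Benjamini-Hochberg adjustment over 16849 genes), without a count model since TPM are not counts. The steps were tested on simulated data. Depth was estimated from the step between TPM values of microRNA genes of known length and exon lengths of GENCODE vM21, and corresponds to about 37500000 to 46800000 reads per library. The members, the lists and the rule for named genes (the members, a fixed choice of pathway genes, of which 1 is not reported here, the called gene with the largest change in each direction of each role list and the 3 genes nearest each called member) were chosen with earlier results of these data known, and Ptprc and the ratios between genes were added after the values were seen. Alternatives were other pseudocounts, filters, scalings and fold limits, no variance trend, a replicate block and each library left out. Figures were drawn with matplotlib 3.10.9. Data of the study from other assays were not analysed here.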

Additional observations from a re-analysis of the deposited data

How the results depend on the processing

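Ctsk, Acp5 and Siglec15 were called higher under each alternative that gave them a value, other than leaving out an ND library, where limma called 0 of the 16849 genes (unadjusted p under 0.05 in 3862 genes without ND replicate 1 and 4024 without ND replicate 2). With one library left out at a time, the log2 fold change ranged from 5.74 to 5.86 for Ctsk, 2.76 to 2.86 for Acp5, 3.03 to 3.23 for Siglec15, 1.03 to 1.28 for Ocstamp, 0.67 to 0.89 for Tnfrsf11a, -0.59 to -0.54 for Nfatc1, -0.49 to 0.024 for Itgb3, -0.12 to 0.021 for Traf6 (0.019 without HFD replicate 2) and -0.68 to 0.44 for Jdp2. Over these fits, members called higher numbered 0 to 3 and lower 0 to 1, pathway genes 0 to 26 and 0 to 12, and all genes 0 to 2650 and 0 to 1691. Tnfrsf11a, at 0.78, lost its call with no filter (adjusted p = 0.059) and at a fold limit of 2. Nfatc1 was called lower, as the 1 such member, at pseudocount 0.1 (-0.61), with median-ratio scaling (-0.59), with quantile normalization (-0.64), without the 50 most abundant genes (-0.63) and without HFD replicate 1 (-0.59). At a fold limit of 2, 16 pathway genes were called higher and 5 lower, and 705 and 897 over the whole table. Genes called lower numbered 1072 at pseudocount 5 and 1109 at a mean TPM of at least 5, a filter that leaves out Itgb3 and Siglec15. The cause of these differences was not tested.

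The replicate numbers were not taken to pair the libraries, since the labels do not state a pairing. Over the 16849 genes tested, deviations from the diet mean correlated at -0.015 between libraries with the same replicate number. This value rests on 2 libraries per diet and cannot decide whether they were paired. With a replicate block, 3 members were called higher (Ctsk, Acp5 and Siglec15), Ocstamp at 1.16 and Tnfrsf11a at 0.78 were not (adjusted p = 0.0711 and 0.0902), Nfatc1 missed the p threshold as well (adjusted p = 0.0926), 16 pathway genes were called higher and 5 lower, and 407 and 405 over the whole table. Among the named pathway genes, Mitf, Prdm1, Src, Ostm1, Snx10, Mmp14, Ramp1, Plcg2, Gab2 and Pstpip2 lost their calls under the block, with adjusted p from 0.0527 (Plcg2) to 0.113 (Mitf). Values printed to 0.1 TPM limit what can be said of Oscar, Calcr and the ND level of Siglec15, and 2 libraries per diet limit every call.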
